A study of Homo sapiens with 4 samples.

Results

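Integrated stress response genes around the transcription factors ATF4 and CHOP (the protein of DDIT3) were followed in BT-474 breast cancer cells with and without NRP-1 overexpression. They comprised 37 genes of the 18882 listed in the deposited tables and were chosen by name, with earlier results of these data known. Among them were 8 transcription factors, 11 enzymes of serine, one-carbon and amino acid synthesis, and 7 amino acid transporters. The rest were 8 effector and feedback genes and 3 genes that encode eIF2α kinases or their substrate. All 37 were listed and passed the filter on low counts. Of the 37, 4 fell in BT-474 NRP-1 cells (DDIT3, SLC3A2, SESN2 and GDF15, edgeR's quasi-likelihood test), while 0.678% of all genes tested fell. The median log2 fold change of the 37 genes was -0.57, beside 0.02 over all 14298 genes tested.

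In the integrated stress response, a kinase that senses stress phosphorylates the translation factor eIF2α, which slows protein synthesis in general and favours translation of the ATF4 mRNA. PERK (EIF2AK3) responds to unfolded proteins in the endoplasmic reticulum and GCN2 (EIF2AK4) to uncharged tRNA. ATF4 binds DNA with partners of the C/EBP family and induces genes of amino acid supply, and it also induces CHOP, which is linked to cell death under prolonged stress. GADD34 (PPP1R15A) brings a phosphatase to eIF2α and ends the response. Since ATF4 is controlled at translation, its mRNA level is not a measure of its activity.

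BT-474 is an established human breast cancer line, luminal B-like by the labels. The control group was wild-type BT-474 (2 libraries, replicates 1 and 2) and the other group BT-474 with NRP-1 overexpression (2 libraries, replicates 2 and 3). Both groups were grown in RPMI-1640 with serum. By the study's methods the NRP-1 cells were stably transfected with a pPTuner IRES2 plasmid that holds NRP-1 cDNA, selected with Geneticin and isolated as colonies. The control libraries are of untransfected cells, so in these libraries the plasmid, the selection and the cloning cannot be told apart from NRP-1 itself. The study's qPCR of empty-plasmid cells was not analysed here. The sources used here do not say whether the libraries of a group came from separate cultures or colonies, so p-values measure only the spread between these libraries.

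The expected counts, which are estimated reads per gene, summed to between 8243595 and 8448926 per library. NRP1 had 7 and 8 reads in the controls against 103 and 62 in the NRP-1 libraries, 0.918 ± 0.0785 and 9.7 ± 3.42 CPM (reads scaled to the size of the library, SD, n = 2). Its log2 fold change was 3.38 (SE 0.42, adjusted p = 0.044, edgeR). The luminal markers of breast epithelium, ESR1, PGR, GATA3, FOXA1, KRT8, KRT18, KRT19, ERBB2, EPCAM and CDH1, were all present, and together they held 11892 and 12150 CPM in the controls and 14260 and 12187 CPM in the NRP-1 libraries. Among them GATA3 had 184 and 186 reads in the controls and 688 and 289 in the NRP-1 libraries (log2 fold change 1.34, adjusted p = 0.126 in edgeR and 0.0099 in DESeq2). Of the 10 markers, 5 were above both controls in both NRP-1 libraries (background 27.9%). EPCAM (log2 fold change -0.31) and CDH1 (-0.15) were below both (background 28.3%). ESR1 had 395 and 437 reads against 273 and 735, and PGR 702 and 717 against 419 and 1138, on either side of the controls. Of the markers of other cell types, KRT14, DCN, CD3E and CD14 had no reads, while others were present in every library. LYZ had between 520 and 575 reads and PTPRC between 9 and 17. COL1A1 had 1739 and 1740 reads in the controls and 1513 and 1357 in the NRP-1 libraries. TP63 had 12 and 43 reads against 40 and 74, and MYH11 had 42 and 47 against 54 and 85. Of the endothelial markers, VWF had 9 and 20 reads against 47 and 49 (log2 fold change 1.66, adjusted p = 0.0998, edgeR), and PECAM1 had 36 and 53 against 52 and 47. VIM, a mesenchymal marker, had 69 and 48 reads in the controls and 371 and 147 in the NRP-1 libraries (log2 fold change 2.08, adjusted p = 0.0821 in edgeR and 0.000328 in DESeq2). The whole fibroblast or mesenchymal list held 223 and 218 CPM against 222 and 177. Most of this sum was COL1A1 (214 and 212 CPM against 178 and 159), so it says little about the other genes of the list. The basal list held 6.9 and 11 CPM in the controls and 11.1 and 19.1 in the NRP-1 libraries, the leukocyte list 72.7 and 64.5 against 62.4 and 67.5, and the endothelial list 5.67 and 9 against 13.4 and 11.6. The part of these markers in the results below was not tested. In bulk RNA, fewer cells that express a gene and less of its RNA per cell cannot be told apart.

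ATF4 acts with C/EBP partners at a composite element whose letters are TGATGNAA. The 250 bases before a single start site per gene were read from RefSeq (GRCh38.p14) for the 31 members with an entry (not matched: NUPR1, PSPH, SHMT2, ALDH1L2, PYCR1 and SLC7A11), and both strands were searched. Other start sites of a gene and bases farther away were not searched, so a gene without a match here may still hold the element elsewhere. The element was present in 3 of 31 member promoters (9.68%), against 870 of 27305 RefSeq promoters (3.19%) and 161 of 11225 promoters of tested genes (1.43%). The windows of these 3 members are shown because they are the only places in the searched 250 bases of each member where the letters of the ATF4 element occur. Whether they are the sites that ATF4 uses at these genes was not tested. Each line gives 28 bases of the gene's own strand, 5′ to 3′, with the element in capitals.
ATF3, chr1:212565206-212565233 (+ strand), bases 191 to 184 before the start: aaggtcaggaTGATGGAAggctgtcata
ASNS, chr7:97872459-97872486 (− strand), bases 68 to 61 before the start: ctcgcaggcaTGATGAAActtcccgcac
CHAC1, chr15:40953252-40953279 (+ strand), bases 209 to 202 before the start, element on the opposite strand: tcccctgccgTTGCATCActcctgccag
In GENCODE 29, the ATF3 window lies outside every annotated transcript of ATF3, while the ASNS window reaches into the 5′ UTR of 4 ASNS transcripts and the CHAC1 window into that of 2 CHAC1 transcripts. The palindromic CRE, TGACGTCA, was found in 1 of 31 member promoters, that of PPP1R15A, and in 2.82% of the promoters of tested genes. A match is a description of the sequence, and ATF4 binding was not measured.

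The 37 genes together held 7718 and 7865 CPM in the control libraries and 4632 and 5133 CPM in the NRP-1 libraries, so both NRP-1 totals lay below both control totals. As a share of all reads this was 0.76% and 0.778% against 0.469% and 0.517%. Of the members, 4 of 37 were lower at an adjusted p under 0.05 in edgeR, where 0.678% of all tested genes were lower. None was higher (0 of 37 in edgeR and 0 of 37 in DESeq2), where 0.413% of all tested genes were higher in edgeR and 2.8% in DESeq2, and 2 members, ATF5 and ALDH18A1, were higher at an unadjusted p under 0.05 in edgeR (background 10.8%). DESeq2 called 14 of 37 lower (background 3.86%), the 4 of edgeR among them. At an unadjusted p under 0.05, 22 of 37 were lower in edgeR (background 12.1%). A log2 fold change of -1 or less was found in 11 of 37 members (background 5.21%) and one of 1 or more in 0 of 37 (background 3%). In 28 of 37 genes both NRP-1 libraries lay below both controls (background 28.3%), in 5 above (background 27.9%), and in 4 (PSPH, ALDH1L2, CTH and EIF2AK3) the groups overlapped.

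The number of calls changed with every library left out. edgeR called 0 members without control replicate 1 and 0 without control replicate 2, where 12 and 10 members were lower at an unadjusted p under 0.05. It called 25 lower and 4 higher without NRP-1 replicate 2, and 24 lower and 3 higher without NRP-1 replicate 3. Each of these fits leaves 1 library alone in its group, and that library is assumed to vary like the other group. Without a filter on low counts edgeR also called 0 members, with 22 lower at an unadjusted p under 0.05, and limma on log2 of the length-normalized values (FPKM) called 0, with 21 lower at an unadjusted p under 0.05 at a pseudocount of 1 and 17 at 0.1. For a single gene, an exact two-sided permutation test of 2 against 2 libraries cannot give a p below 0.333.

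**Figure D1:**
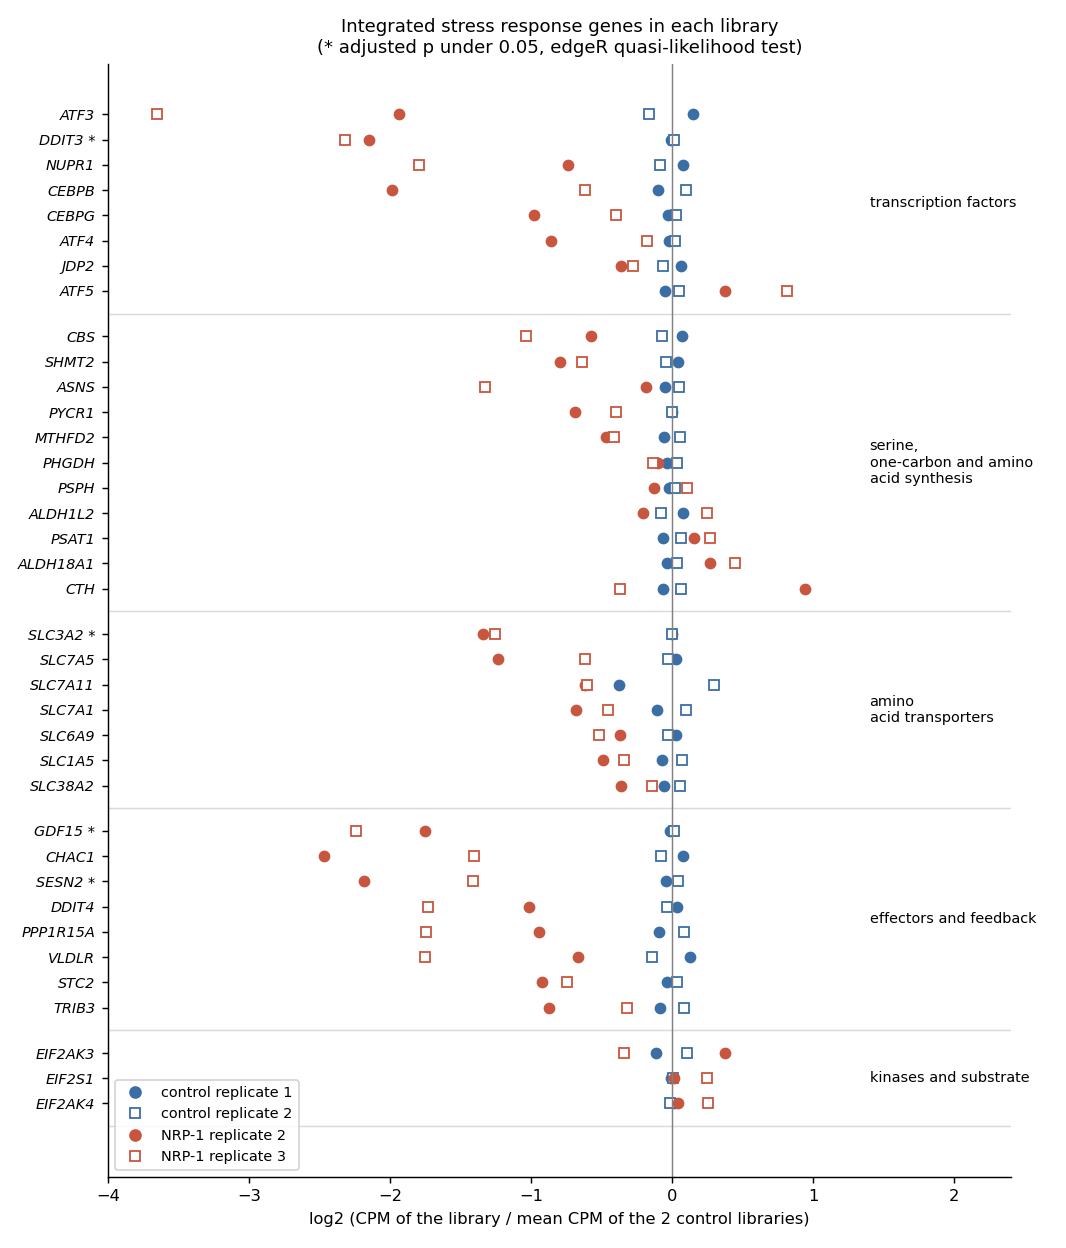
Each row is 1 of the 37 genes, and the horizontal axis gives the log2 ratio of a library's CPM to the mean CPM of the 2 controls (circles, control replicate 1 and NRP-1 replicate 2; open squares, control replicate 2 and NRP-1 replicate 3; blue, control; red, NRP-1). The red symbols lie left of both blue symbols in 28 genes and right of both in 5, and asterisks mark the 4 genes with an adjusted p under 0.05 in edgeR.

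Among the transcription factors, DDIT3, which encodes CHOP, had 2621 and 2693 reads in control replicates 1 and 2 but 623 and 555 reads in NRP-1 replicates 2 and 3. This was 325 ± 3.39 CPM against 69.2 ± 5.72 CPM (SD, n = 2), and the groups were far apart with little spread within either. DDIT3 fell by 2.23 on the log2 scale (SE 0.13, adjusted p = 0.0171, edgeR), a 4.7-fold lower level. The same fall was 2.15 and 2.32 in the separate NRP-1 libraries, each set against the mean of the controls. DDIT3 shares 62 exon bases with MARS1 on the opposite strand, and MARS1 had between 2277 and 2527 reads in the 4 libraries.

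ATF3, a stress-induced repressor that ATF4 and CHOP can induce, had 344 and 280 reads in the controls but 85 in NRP-1 replicate 2 and 26 in NRP-1 replicate 3. Both NRP-1 libraries were below both controls, and they differed 3.27-fold from each other, the widest gap between the NRP-1 libraries among the 37 genes. The log2 fold change was -2.55 (SE 0.48), the lowest fold change of the members, and it missed the threshold in edgeR (adjusted p = 0.068) while it passed in DESeq2 (adjusted p = 3.11e-06). NUPR1, a small chromatin-linked stress protein, had 3862 and 3496 reads in the controls and 2300 and 1105 in the NRP-1 libraries (log2 fold change -1.17, SE 0.33, adjusted p = 0.116, edgeR).

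ATF4 itself had 5080 and 5289 reads in the controls, 2978 in NRP-1 replicate 2 and 4777 in NRP-1 replicate 3. Only NRP-1 replicate 2 stood well apart from the controls, while NRP-1 replicate 3 was close to them. The log2 fold change was -0.48 (SE 0.23, adjusted p = 0.275, edgeR). In levels per length, the FPKM of DDIT3 was 0.768 and 0.758 of that of ATF4 in the controls and 0.309 and 0.174 of it in the NRP-1 libraries.

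ATF5, an ATF4-related factor of the mitochondrial stress response, was the 1 transcription factor that was higher in both NRP-1 libraries. It had 463 and 501 reads in the controls and 650 and 883 in the NRP-1 libraries (log2 fold change 0.61, SE 0.18, adjusted p = 0.122, edgeR). Its FPKM was 0.0616 and 0.0644 of that of ATF4 in the controls and 0.147 and 0.125 of it in the NRP-1 libraries. The library kit is not said to keep strand, and ATF5 shares 563 exon bases with NUP62 on the opposite strand, so reads there cannot be told apart. NUP62 had 801 and 873 reads in the controls and 805 and 1116 in the NRP-1 libraries.

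Among the C/EBP partners, CEBPB had 1044 and 1220 reads in the controls against 298 and 768 (log2 fold change -1.15, SE 0.41, adjusted p = 0.174, edgeR). CEBPG had 838 and 881 reads against 453 and 679 (log2 fold change -0.66, SE 0.20, adjusted p = 0.138, edgeR). For both, NRP-1 replicate 2 was the lower library. JDP2, a repressor of the AP-1 family, had 186 and 173 reads against 145 and 154 (log2 fold change -0.32). Of the 8 factors, 1 fell in edgeR (background 0.678%) and 4 in DESeq2 (DDIT3, ATF3, NUPR1 and CEBPB, background 3.86%). The median log2 fold change of the factors was -0.90.

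The 11 enzymes of serine, one-carbon and amino acid synthesis had the median log2 fold change nearest to 0 among the target groups, -0.11. They had 0 calls in edgeR and 2 lower in DESeq2 (background 3.86%). In edgeR, 4 were lower (background 12.1%) and 1 higher (background 10.8%) at an unadjusted p under 0.05. The 3 enzymes that make serine from a glycolytic intermediate differed little. PHGDH had 1775 and 1896 reads in the controls and 1787 and 1748 in the NRP-1 libraries (log2 fold change -0.11, SE 0.11). PSAT1 had 902 and 996 reads against 1101 and 1196 (log2 fold change 0.22, SE 0.12), and PSPH had 1347 and 1409 against 1307 and 1539 (log2 fold change -0.01, SE 0.13). The adjusted p of these 3 genes lay between 0.349 and 0.965 in edgeR.

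In mitochondria, SHMT2 and MTHFD2 had lower values in both NRP-1 libraries, while ALDH1L2 overlapped the controls. SHMT2, which turns serine into glycine and a one-carbon unit, had 2596 and 2482 reads in the controls and 1522 and 1702 in the NRP-1 libraries, with no overlap. Its log2 fold change was -0.71 (SE 0.12, adjusted p = 0.0604 in edgeR and 0.00227 in DESeq2). MTHFD2, which passes the one-carbon unit on, had 2367 and 2587 reads against 1866 and 1938 (log2 fold change -0.44, SE 0.12, adjusted p = 0.108, edgeR). MTHFD2 shares 1324 exon bases with SLC4A5 on the opposite strand, which had between 192 and 322 reads. ALDH1L2, a mitochondrial folate dehydrogenase, was barely expressed, with 22 and 20 reads in the controls and 19 and 26 in the NRP-1 libraries.

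ASNS, asparagine synthetase and a widely used ATF4 target, had 1779 and 1920 reads in the controls, 1695 in NRP-1 replicate 2 and 769 in NRP-1 replicate 3. Only NRP-1 replicate 3 was far below the controls, the reverse of ATF4 in the same libraries. The log2 fold change was -0.64 (SE 0.35, adjusted p = 0.325, edgeR) over both NRP-1 libraries, and the log2 ratio to the control mean was -0.18 in replicate 2 and -1.33 in replicate 3. The ASNS level was 0.961 and 0.97 of the PHGDH level in FPKM in the controls, 0.91 in NRP-1 replicate 2 and 0.424 in NRP-1 replicate 3.

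The proline enzymes had log2 fold changes of opposite sign. PYCR1, the last step of proline synthesis, had 4453 and 4506 reads in the controls and 2894 and 3552 in the NRP-1 libraries (log2 fold change -0.53, SE 0.14, adjusted p = 0.107, edgeR). ALDH18A1, the first step, was higher in both NRP-1 libraries, with 1145 and 1214 reads against 1477 and 1679 (log2 fold change 0.36, SE 0.12, adjusted p = 0.167, edgeR). In the transsulfuration pathway, which makes cysteine, CBS had 627 and 577 reads in the controls and 420 and 307 in the NRP-1 libraries (log2 fold change -0.79, SE 0.18, adjusted p = 0.085 in edgeR and 0.0257 in DESeq2). CTH, the next enzyme, was low in every library, with 27 and 30 reads in the controls and 57 and 23 in the NRP-1 libraries, and the NRP-1 libraries lay on either side of the controls.

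All 7 amino acid transporters were below both controls in both NRP-1 libraries, where 28.3% of all tested genes were. Their median log2 fold change was -0.57, with 1 called lower in edgeR (background 0.678%) and 2 in DESeq2 (background 3.86%). SLC3A2, the heavy chain (CD98) that several amino acid exchangers need at the cell surface, had 4466 and 4540 reads in the controls and 1850 and 1967 with NRP-1, or 551 ± 1.58 CPM against 224 ± 9.5 CPM (SD, n = 2), and neither group spread much. SLC3A2 fell by 1.30 on the log2 scale (SE 0.12, adjusted p = 0.0345, edgeR), a 2.46-fold lower level.

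Among the members, the light chains that pair with SLC3A2 are SLC7A5 and SLC7A11, and neither passed in edgeR. Further light chains outside the members, SLC7A8 and SLC7A6, had log2 fold changes of opposite sign. SLC7A8 had 892 and 833 reads in the controls and 338 and 182 in the NRP-1 libraries. Its log2 fold change was -1.79 (adjusted p = 0.0547 in edgeR and 4.48e-07 in DESeq2). For SLC7A6 the log2 fold change was 0.25 (adjusted p = 0.354, edgeR). SLC7A5, the leucine carrier LAT1, had 7178 and 7004 reads in the controls, 3136 in NRP-1 replicate 2 and 4825 in NRP-1 replicate 3 (log2 fold change -0.89, SE 0.22, adjusted p = 0.0908 in edgeR and 0.00354 in DESeq2). With the reads of its listed pseudogene copies SLC7A5P1 and SLC7A5P2 added, the log2 fold change was -0.88. SLC7A11, the cystine carrier, was much less abundant, with 194 and 314 reads in the controls and 172 and 174 in the NRP-1 libraries (log2 fold change -0.61, SE 0.25, adjusted p = 0.223, edgeR). It was the 1 member whose controls differed by more than 1.5-fold (1.6-fold). The FPKM ratio of SLC7A5 to SLC3A2 was 0.685 and 0.657 in the controls, 0.721 in NRP-1 replicate 2 and 1.07 in NRP-1 replicate 3.

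The other 4 carriers among the members had smaller differences. SLC7A1, for arginine and lysine, had 1033 and 1207 reads in the controls and 725 and 850 in the NRP-1 libraries (log2 fold change -0.57). SLC1A5, for glutamine and other neutral amino acids, had 2696 and 3009 reads against 2107 and 2341 (log2 fold change -0.42). SLC6A9, a glycine carrier, had 289 and 280 reads against 230 and 207 (log2 fold change -0.44), and SLC38A2, a carrier of small neutral amino acids, had 1899 and 2075 against 1609 and 1871 (log2 fold change -0.25). In edgeR their adjusted p lay between 0.0977 and 0.319.

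The effector and feedback genes had the lowest median log2 fold change of the 5 groups, -1.31, and in all 8 both NRP-1 libraries were below both controls (background 28.3%). edgeR called 2 of the 8 lower (background 0.678%) and DESeq2 6 (background 3.86%). GDF15, a secreted stress cytokine, had 2349 and 2416 reads in the controls and 736 and 525 in the NRP-1 libraries, 292 ± 3.25 CPM against 74.1 ± 17.6 CPM (SD, n = 2). GDF15 fell by 1.98 on the log2 scale (SE 0.18, adjusted p = 0.0345, edgeR), a 3.94-fold lower level.

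SESN2, a leucine-sensing inhibitor of the growth kinase mTORC1, had 698 and 749 reads in the controls and 166 and 284 in the NRP-1 libraries, 88.6 ± 3.64 CPM against 26.4 ± 9.78 CPM (SD, n = 2). It fell by 1.74 on the log2 scale (SE 0.26, adjusted p = 0.0483, edgeR), close to the threshold. DDIT4, another inhibitor of mTORC1, had 3170 and 3050 reads against 1605 and 980 (log2 fold change -1.33, SE 0.24, adjusted p = 0.0627 in edgeR and 1.5e-05 in DESeq2). The lower NRP-1 library was replicate 2 for SESN2 and replicate 3 for DDIT4.

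CHAC1, which breaks down glutathione, had 189 and 172 reads in the controls and 34 and 71 in the NRP-1 libraries (log2 fold change -1.84, SE 0.35, adjusted p = 0.068 in edgeR and 0.000402 in DESeq2). VLDLR, a lipoprotein receptor, had 210 and 177 reads against 127 and 60 (log2 fold change -1.11, SE 0.36, adjusted p = 0.149, edgeR). STC2, a secreted glycoprotein, had 875 and 931 reads against 495 and 561 (log2 fold change -0.83, SE 0.13, adjusted p = 0.0536 in edgeR and 0.00151 in DESeq2). Of these 3, STC2 had close NRP-1 libraries and the others differed more than 2-fold between them.

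The feedback genes differed in size. PPP1R15A, which encodes GADD34, had 585 and 671 reads in the controls and 340 and 195 in the NRP-1 libraries (log2 fold change -1.29, SE 0.27, adjusted p = 0.0745 in edgeR and 0.000673 in DESeq2). TRIB3, a pseudokinase that restrains ATF4 and CHOP, had 3202 and 3644 reads against 1938 and 2851 (log2 fold change -0.57, SE 0.20, adjusted p = 0.173, edgeR), the smallest difference of the 8.

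The 3 genes upstream of ATF4 had 0 calls in edgeR and in DESeq2, and 0 had an unadjusted p under 0.05 in edgeR. EIF2S1, which encodes eIF2α, had 1063 and 1081 reads in the controls and 1128 and 1330 in the NRP-1 libraries (log2 fold change 0.14, SE 0.13, adjusted p = 0.576, edgeR). EIF2AK4 (GCN2) had 673 and 671 reads against 721 and 834 (log2 fold change 0.15, SE 0.13, adjusted p = 0.536, edgeR). EIF2AK3 (PERK) had 403 and 476 reads in the controls, 593 in NRP-1 replicate 2 and 362 in NRP-1 replicate 3, so the NRP-1 libraries lay on either side of the controls. Phosphorylation of eIF2α, which sets the response, was not measured by these libraries.

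In control cells, NUPR1 (514 FPKM), ATF4 (437 FPKM), DDIT3 (334 FPKM), SLC3A2 (279 FPKM), PYCR1 (263 FPKM) and GDF15 (239 FPKM) had the highest mean FPKM of the 37 genes. The 2 controls of these 6 genes did not overlap in the order from NUPR1 to GDF15. In BT-474 NRP-1 cells the order began with ATF4 (322 FPKM), NUPR1 (234 FPKM) and PYCR1 (186 FPKM), and the NRP-1 libraries of NUPR1 overlapped those of the other two. DDIT3 was at 72.7 FPKM and GDF15 at 62.3 FPKM. ALDH1L2, CTH and SLC7A11 were the lowest in both groups, with means between 0.335 and 3.14 FPKM.

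**Figure D2:**
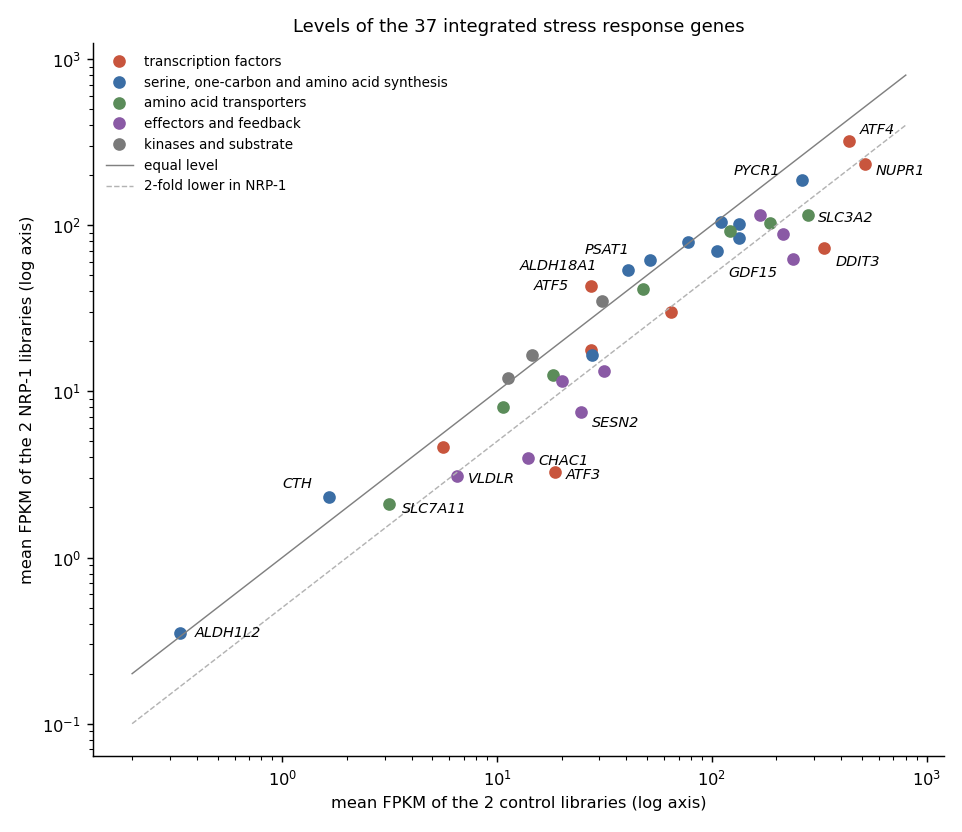
Mean FPKM of the 2 NRP-1 libraries against mean FPKM of the 2 control libraries, both on log axes, for the 37 genes coloured by role. The solid line marks equal levels and the dashed line a 2-fold lower level in NRP-1, and DDIT3 (334 against 72.7 FPKM), ATF3 (18.7 against 3.29) and GDF15 (239 against 62.3) lie farthest below it.

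The members spread more between the NRP-1 libraries than between the controls. The ratio of the higher to the lower library had a median of 1.07 over the 37 genes in the controls and 1.36 in the NRP-1 group, beside 1.1 and 1.22 over all tested genes with reads in every library. A ratio over 1.5 was found for 1 of 37 members in the controls and for 13 of 37 (35.1%) in the NRP-1 group, beside 7.54% and 22.3% of all those genes. The 13 went both ways. ATF3, NUPR1, ASNS, CTH, DDIT4, PPP1R15A, VLDLR and EIF2AK3 were higher in NRP-1 replicate 2, and ATF4, CEBPB, CHAC1, SESN2 and SLC7A5 were higher in NRP-1 replicate 3. The median log2 ratio to the control mean was -0.67 in NRP-1 replicate 2 and -0.46 in NRP-1 replicate 3.

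**Figure D3:**
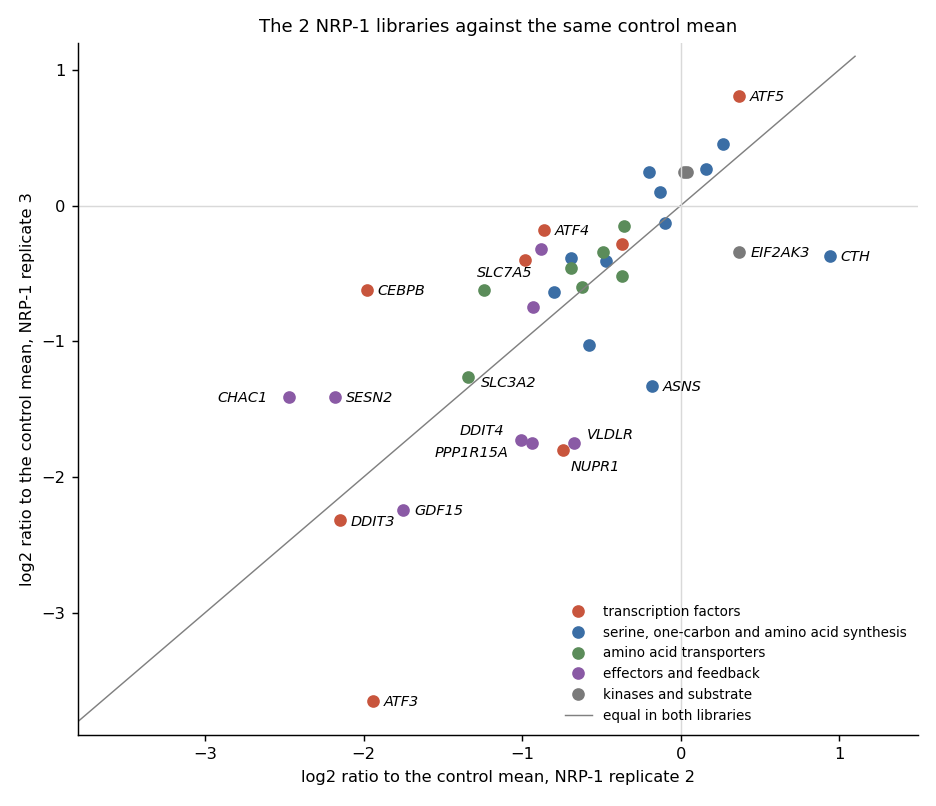
For each of the 37 genes, the log2 ratio to the mean of the controls in NRP-1 replicate 3 (vertical) against that in NRP-1 replicate 2 (horizontal), coloured by role, with a line of equal ratios. DDIT3 (-2.15 and -2.32) and SLC3A2 (-1.34 and -1.26) lie near the line, while ATF3, ASNS, CTH and CEBPB lie farther from it. The axes share the same controls, so the joint trend of the points is not a result.

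A further 71 genes were set beside the members, of which 65 were tested. In edgeR 4 fell and 0 rose (background 0.678% and 0.413%), and 19 were lower and 5 higher at an unadjusted p under 0.05 (background 12.1% and 10.8%). DESeq2 had 8 lower and 2 higher (background 3.86% and 2.8%). Their median log2 fold change was -0.17. Of 12 tested targets of ATF4 and CHOP that are not among the members, 3 fell in edgeR (background 0.678%). All 12 had a log2 fold change below 0 (median -0.80), as did 6897 of all 14298 tested genes. TNFRSF10B, the death receptor DR5, had 952 and 1107 reads in the controls and 438 and 480 in the NRP-1 libraries and fell by 1.22 (adjusted p = 0.0384, edgeR). BBC3, the pro-apoptotic protein PUMA, had 377 and 426 reads against 135 and 83 and fell by 1.94 (adjusted p = 0.0442, edgeR), and ADM2, a secreted peptide, had 421 and 452 against 176 and 180 and fell by 1.35 (adjusted p = 0.0372, edgeR). FGF21 is not in the tables used here.

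The machinery around eIF2 was near the median of all genes. Of 18 tested genes for the other eIF2 kinases, eIF2 subunits, the exchange factor eIF2B and the phosphatase, 0 were called in edgeR. Their median was -0.02, and edgeR had 3 lower (background 12.1%) and 4 higher (background 10.8%) at an unadjusted p under 0.05. DESeq2 had 1 higher (background 2.8%). That gene was PPP1CA, a catalytic subunit that GADD34 recruits, with 1865 and 1890 reads in the controls and 2781 and 3188 in the NRP-1 libraries (log2 fold change 0.61, SE 0.13, adjusted p = 0.0746 in edgeR and 0.0146 in DESeq2). IMPACT, an inhibitor of GCN2 activation, had 730 and 723 reads against 571 and 406 (log2 fold change -0.63, adjusted p = 0.125, edgeR). The phosphatase subunit and its stress-induced partner thus had log2 fold changes of opposite sign, 0.61 for PPP1CA and -1.29 for PPP1R15A.

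Of 11 tested amino acid transporters outside the members, 1 fell in edgeR (background 0.678%), with a median of 0.07. DESeq2 had 2 lower (background 3.86%) and 1 higher (background 2.8%). SLC43A1, a carrier of large neutral amino acids, had 184 and 121 reads in the controls and 28 and 27 in the NRP-1 libraries and fell by 2.53 on the log2 scale (SE 0.30, adjusted p = 0.0435, edgeR). Of 12 tested further enzymes of serine, one-carbon, proline and glutamine metabolism, 0 were called in edgeR and 1 was lower in DESeq2 (background 3.86%). In edgeR, 4 were lower (background 12.1%) and 0 higher (background 10.8%) at an unadjusted p under 0.05. The median of these enzymes was -0.01. PRODH, which degrades proline, had 2869 and 3121 reads against 2281 and 1541 (log2 fold change -0.71, adjusted p = 0.119 in edgeR and 0.0338 in DESeq2). AMT, of the glycine cleavage system, had 80 and 48 reads against 27 and 18 (log2 fold change -1.56, adjusted p = 0.0975, edgeR).

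The endoplasmic reticulum chaperones and genes of the XBP1 and ATF6 arm belong to the same unfolded protein response as PERK. Of 23 tested, 1 fell in edgeR (background 0.678%) and 16 were lower in DESeq2 (background 3.86%), with a median log2 fold change of -0.89. At an unadjusted p under 0.05 in edgeR, 18 were lower (background 12.1%) and 0 higher (background 10.8%). In 20 of the 23 both NRP-1 libraries lay below both controls (background 28.3%). A lower level was thus not particular to the members. HERPUD1, of the degradation pathway of the endoplasmic reticulum, had 2646 and 2774 reads in the controls and 1468 and 1214 in the NRP-1 libraries and fell by 1.07 (adjusted p = 0.044, edgeR). Their summed level was 18130 and 18424 CPM in the controls, 11687 in NRP-1 replicate 2 and 8188 in NRP-1 replicate 3. Of 20 cytosolic aminoacyl-tRNA synthetases, many of which ATF4 can induce, 0 were called in edgeR and 3 were lower in DESeq2 (background 3.86%). In edgeR, 9 were lower (background 12.1%) and 1 higher (background 10.8%) at an unadjusted p under 0.05. The median of the synthetases was -0.25. AARS1 had 5047 and 5216 reads against 3363 and 3612 (log2 fold change -0.62, adjusted p = 0.0684, edgeR), and WARS1 had 2918 and 2799 against 1893 and 755 (log2 fold change -1.17, adjusted p = 0.162, edgeR). These lists stand side by side, and the differences between their medians were not tested.

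**Figure D4:**
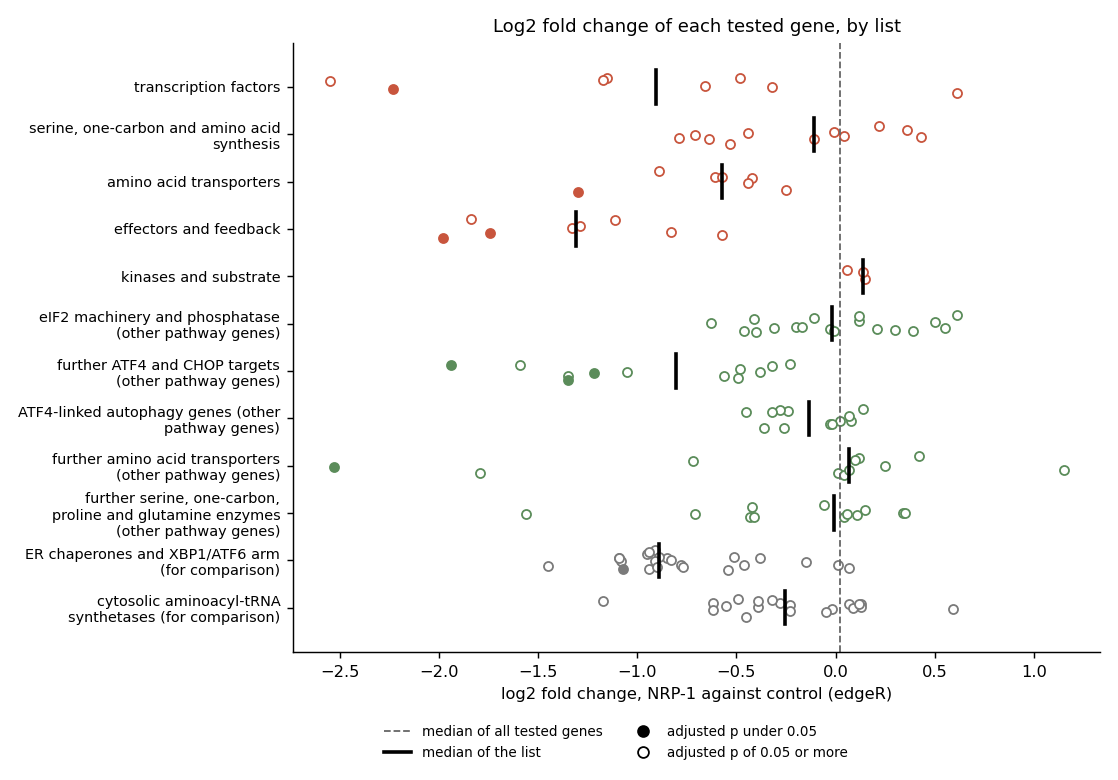
Log2 fold change of every tested gene (edgeR, NRP-1 against control) in the 5 role groups of the members (red), 5 lists of other pathway genes (green) and 2 lists for comparison (grey), with filled points for an adjusted p under 0.05, thick bars for list medians and a dashed line for the median of all tested genes, 0.02. The effectors (-1.31), the transcription factors (-0.90), the endoplasmic reticulum genes (-0.89) and the further targets (-0.80) have the lowest medians, and the kinases and substrate (0.14) have the highest.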

How the data were processed

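RNA of 2 control and 2 NRP-1 libraries was sequenced on oligo-dT enriched, randomly primed cDNA. Per the labels, the submitters' processing notes name bcl2fastq 2.16, HISAT2 2.0.1, Bowtie2 2.2.5 and RSEM, and the builds GRCh38 and hg19 without their roles, so no coordinates are taken from the files. The authors deposited an expected count per gene, not normalized and not always whole, and FPKM values normalized for length and depth. The authors also deposited a table of their own comparison (mean FPKM, log2 ratio and a probability), which was not used.

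A gene absent from a library's table was set to 0 reads. Of 18882 gene IDs, 99.4% matched a RefSeq symbol. After rounding of the counts, edgeR 4.0.16 (R 4.3.3) was run with filterByExpr, TMM factors and the quasi-likelihood test, and p-values were adjusted by Benjamini-Hochberg over 14298 genes, with calls at an adjusted p under 0.05. CPM used TMM-scaled library sizes, and the SE was the absolute log2 fold change divided by the square root of F. The alternatives were DESeq2 1.42.0, limma 3.58.1 at pseudocounts of 1 and 0.1 on log2 FPKM (mean FPKM of at least 0.5), and other normalizations, filters and the omission of each library. The scripts were tested on simulated data. Exon overlaps came from GENCODE 29, and 7 members share exon bases with an opposite-strand gene (ATF5, DDIT3, EIF2S1, MTHFD2, SLC6A9, SLC7A11 and VLDLR).

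Members and lists were chosen with earlier results of these data known. Beside NRP1 and all members, the genes named were those called in edgeR in each list, otherwise the 2 with the largest absolute log2 fold change among those averaging at least 10 reads. SLC7A8 and SLC7A6 were named in addition, as further light chains of SLC3A2. The cell type markers came from separate lists, and those given with their reads were not picked by this rule.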

Additional observations from a re-analysis of the deposited data

How the results depend on the processing

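No paired analysis was possible because the groups share only replicate number 2. The median log2 fold change of the 37 members, -0.57, moved by less than the spread of 0.15 between the NRP-1 libraries under every alternative run, between -0.67 and -0.47. The number of members called lower was 4 in edgeR, 14 with DESeq2, 0 with limma on log2(FPKM + 1), 0 with limma on log2(FPKM + 0.1) and 0 without a filter on low counts, and it ranged from 0 to 25 with each library left out. The number called higher was 0 (2 at an unadjusted p under 0.05 in edgeR), and it ranged from 0 to 4 with each library left out. With an NRP-1 library left out, only the controls give the spread; with a control left out, only the NRP-1 libraries do. The cause of the other changes was not tested. DDIT3, SLC3A2, SESN2 and GDF15 were called together or not at all under the alternatives run. Across all tested genes the calls were 156 in edgeR, 953 with DESeq2, 6 and 22 with limma at pseudocounts of 1 and 0.1, and 0 of 18837 without the filter (3297 at an unadjusted p under 0.05). Leaving out either control gave 0, with 782 (replicate 1) and 1181 (replicate 2) at an unadjusted p under 0.05, leaving out NRP-1 replicate 2 gave 5414, and leaving out NRP-1 replicate 3 gave 4159. The sign of the log2 fold change turned for 4 members near 0 or with few reads. PSPH was at 0.02 with limma at either pseudocount and with library sizes in place of TMM. With each library left out, PSPH ranged from -0.13 to 0.09, EIF2AK3 from -0.35 to 0.38, ALDH1L2 from -0.20 to 0.24 and CTH from -0.38 to 0.94. ALDH1L2 and CTH had at most 57 reads in a library, which limits any statement on them.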

Other observations

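ATF4-linked autophagy genes were measured as well, for a process that removes cell components and that ATF4 and CHOP can induce. Of 12 tested, 0 were called in edgeR and 0 in DESeq2, and the median log2 fold change was -0.13. In edgeR, 2 were lower (background 12.1%) and 0 higher (background 10.8%) at an unadjusted p under 0.05. The 2 with the largest difference were NBR1, a cargo receptor, with 1681 and 1611 reads in the controls and 1457 and 1054 in the NRP-1 libraries (log2 fold change -0.45, SE 0.18, adjusted p = 0.205, edgeR), and ATG7, an enzyme of autophagosome formation, with 593 and 623 reads against 541 and 443 (log2 fold change -0.36, SE 0.15, adjusted p = 0.215, edgeR). In both, NRP-1 replicate 3 was the lower library. The list's median log2 ratio to the control mean was 0.01 in NRP-1 replicate 2 and -0.31 in NRP-1 replicate 3.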
